A study of Sus scrofa with 18 samples.

Results

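Gilts (young female pigs) raised on a soy-based infant formula had livers that differed from those of gilts raised on a cow's milk-based formula in some cholesterol synthesis genes, the bile acid enzyme CYP7A1, urea cycle enzymes, metallothioneins and macrophage genes. The comparison rests on 6 of the 18 arrays of the series: 3 pools of liver RNA from gilts labelled Soy-formula-fed and 3 from gilts labelled Milk formula-fed. The 6 were chosen by labelled sex and diet alone, so no measured value decided which samples entered, and all probe sets other than the array's controls were tested. The differences named above kept their direction when any 1 pool was left out. Each missed an adjusted p of 0.05 (limma) in at least 1 such fit, and many missed it in most. Of the 6 such fits, MT1A passed in 5, CYP7A1 and ASL in 4, ARG1 and CD163 in 1 and CYP51 in 0.

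The study kept male and female piglets on the sow or moved them at 2 days of age to commercial infant formula, either dairy or soy, and collected liver at 21 days. Each of the 6 groups of sex and diet holds 3 pools, and each array received cRNA made from 8 ug of total RNA. The 3 pools of sow-fed gilts are described beside the formula pools, and the 6 boar formula pools serve to set the same dietary change in males beside that in gilts. The sources used here do not give the strain, the number of piglets in a pool or the composition of the formulas. Pools average over piglets, so the p-values below measure the spread between 3 pools per diet, which may in part be technical. The deposited value is an expression ratio on a linear scale, whose divisor differs between probe sets and is shared by all arrays. Values of 1 gene can therefore be compared between arrays, and values of different genes cannot be compared with each other.

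The liver turns cholesterol into bile acids, and CYP7A1 is the rate-limiting enzyme of the classic route. When sterols in the cell run low, the transcription factor SREBF2 raises the enzymes of cholesterol synthesis and the proteins of cholesterol uptake. The liver also disposes of amino acid nitrogen through the urea cycle, buffers zinc and copper with metallothioneins, and sets iron uptake for the whole body by secreting hepcidin, the product of HAMP. Soy protein fed in place of milk protein is known for lowering blood cholesterol in several species.

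In gilts, 338 of 23935 probe sets (1.41%) differed between the formulas at an adjusted p under 0.05, by limma's moderated test on log2 values with Benjamini-Hochberg adjustment over all tested probe sets. Of these, 224 (0.936%) were higher on soy formula and 114 (0.476%) were lower, and 81 differed at least 2-fold. Of the 6765 genes that the array annotation names, each read from the one of its probe sets whose mean log2 ratio is highest, 164 (2.42%) passed, 108 of them higher (1.60%) and 56 lower (0.828%). A probe set or gene past this threshold is called changed below. The smallest adjusted p was 0.00407, shared by CYP3A46, UCHL1 and MT1A, and 20 of the 338 were under 0.02. After quantile normalization 54.4% of the called probe sets were higher on soy formula, against 66.3% without it.

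The number of calls turned on single pools. It was 96 without milk formula pool 1, 3 without milk formula pool 2, 288 without milk formula pool 3, 137 without soy formula pool 1, 10 without soy formula pool 2 and 30 without soy formula pool 3. All 338 probe sets kept their direction in each of these 6 fits. Of the 63 called genes named here, 17, 3 and 37 stayed called without milk formula pools 1, 2 and 3, and 27, 6 and 9 without soy formula pools 1, 2 and 3. CYP3A46 and UCHL1 stayed called without each of the 6 arrays. With the spread estimated over all 18 arrays, boars included, 58 probe sets were called and 18 of the 63 genes stayed called, among them CYP7A1, CYP3A29, CYP3A46, ARG1, CPS1, ASL, MT1A, MT3, C1QA and C1QC; HAMP, ID1, ACADL and SC5D did not. Below, lists are read from the 6-array fit, and 0 called means by limma's adjusted p. Without adjustment, 3652 of the 23935 tested probe sets had a limma p under 0.05. That background covers all probe sets, whereas the lists hold named genes, each read from 1 probe set. Named genes were called more often than all probe sets (2.42% against 1.41%), and their own unadjusted share is not given here. Unadjusted counts of the lists are therefore given as values only and are no result about a list.

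**Figure D1:**
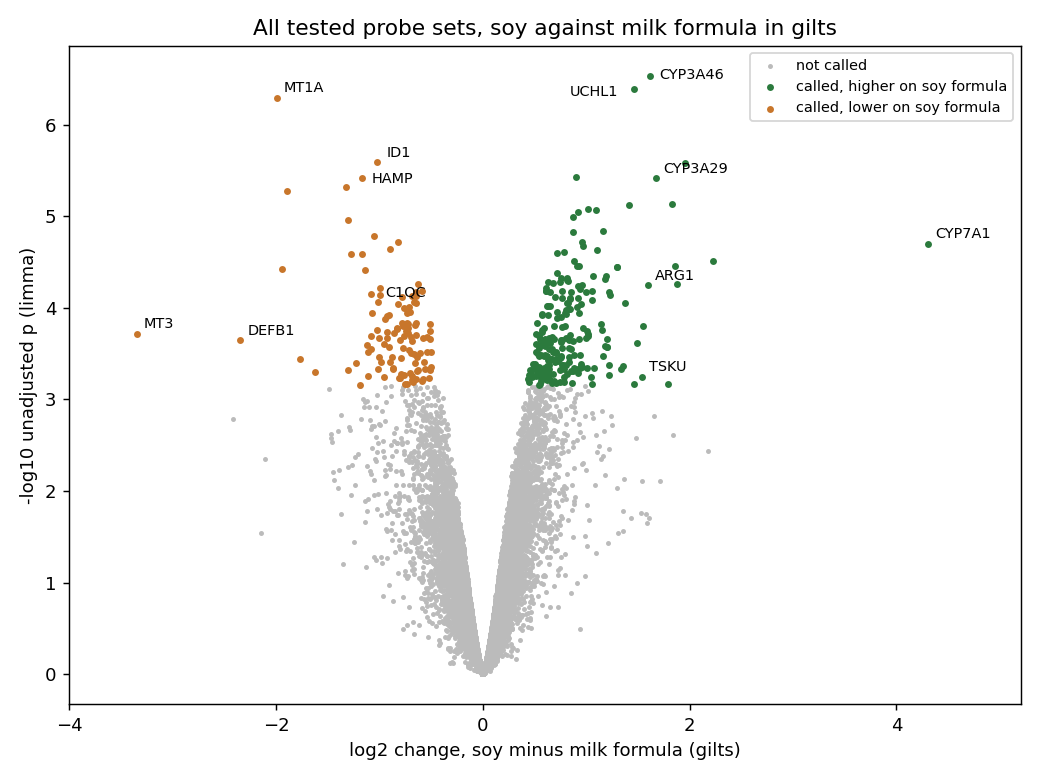
Each point is 1 of 23935 tested probe sets, with the log2 change (soy minus milk formula) across and -log10 of the unadjusted limma p upwards; green and orange mark the 224 called higher and the 114 called lower on soy formula. CYP7A1 and MT3 lie farthest out on the right and on the left among the called genes with a name.

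The 6 arrays separated by diet along their first principal component, which held 43.2% of the variance: the milk formula pools scored -23.2, -22 and -11.2, and the soy formula pools 11.2, 22.3 and 22.9. Array medians lay between 0.309 and 0.311, and the median log2 change over all probe sets was 0. The 5′ to 3′ ratio of the GAPDH control probe sets was 0.844, 0.802 and 0.881 on soy formula and 0.893, 1.04 and 0.97 on milk formula, so the groups did not overlap, whereas those of actin did. Hybridisation controls were brightest on milk formula pool 2 (geometric mean 0.486, against 0.253 to 0.342 on the other 5 arrays), which is also the pool without which 3 calls remained. The part of these measures in the results was not tested. Since ratios of different genes cannot be compared, the values do not show which cell types the tissue held most of, and the liver label was not checked this way. Hepatocyte markers had a median log2 change of 0 and 0 of 12 were called (2 at an unadjusted p under 0.05). ALB, the main plasma protein, changed by -0.03 (SE 0.08).

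CYP7A1 showed the largest rise of any named gene. Its ratio was 9.81, 13.7 and 14.5 in the 3 soy formula pools, 0.65, 1.38 and 0.279 in the milk formula pools, and 0.312, 0.203 and 0.17 in the sow-fed pools. Every soy formula pool was above every milk formula pool, and the sow-fed pools lay at the low end of the milk formula range or below it. The difference was 19.8-fold (log2 4.31, SE 0.49, adjusted p 0.0207). It stayed between 3.72 and 4.87 on the log2 scale in all 15 alternative fits, but lost the call without soy formula pool 2 (adjusted p 0.0732) and without soy formula pool 3 (adjusted p 0.0538). Of the other 12 measured genes of bile acid synthesis and transport, 0 were called, although 10 of all 13 had an unadjusted p under 0.05. They included CYP8B1, which sets the share of cholic acid (log2 0.04, SE 0.1), CYP27A1, the first enzyme of the acidic route (0.48), the uptake carrier SLC10A1 (0.55, adjusted p 0.0566) and the export pump ABCB11 (0.54, adjusted p 0.0939). The median over the 13 genes was 0.48, against 0.01 over all named genes.

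All 11 measured genes of cholesterol synthesis had a higher mean on soy formula, with a median log2 change of 0.82. The groups did not overlap for 9 of the 11, beside 14.0% of all named genes that were apart in this direction. Called members numbered 4. SC5D, which makes the ring double bond of the cholesterol precursors, measured 5.35, 7.47 and 5.83 on soy formula and 3.45, 3.02 and 3.12 on milk formula, and rose by 0.95 (SE 0.13, adjusted p 0.0246). MSMO1, a sterol demethylase, rose 2-fold from 1.41, 1.64 and 1.69 on milk formula to 2.61, 3.99 and 3.02 on soy formula (adjusted p 0.0321). CYP51, lanosterol demethylase, rose by 0.75 (adjusted p 0.0383), and ACAT2, which condenses acetyl-CoA, by 0.77 (adjusted p 0.0321). MSMO1 has 2 further probe sets that differed by -0.07 and 0.21, and ACAT2 has 1 that was 0.69 higher (adjusted p 0.0719). With all 9 gilt arrays in the fit SC5D alone of the 4 was called, and with all 18 arrays none was. For these 4 genes soy formula pool 2 held the highest value, and sow-fed gilts had mean levels below every formula pool.

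HMGCS1, an early step committed to the pathway, measured 2.6, 6.34 and 3.55 on soy formula and 0.877, 1.85 and 1.17 on milk formula (log2 1.65, SE 0.35). It had the largest difference of the list but missed the threshold (adjusted p 0.0689). SREBF2, the regulator of these enzymes, was 0.56 higher with an adjusted p of 0.0739 (-0.01, 0.19 and 0.24 by its further probe sets), and SREBF1, which favours fatty acid genes, was 0.30 higher (adjusted p 0.357). NPC1, which moves cholesterol out of lysosomes, rose by 1.36 (adjusted p 0.0414), at 2.78, 5.74 and 4.63 on soy formula against 1.51, 1.85 and 1.57 on milk formula. The other 9 genes of cholesterol uptake and its control were not called, and the list's median was -0.01 (-0.02 to 0.04 as pools were left out). Called members of the synthesis list numbered 1 without milk formula pool 1, 2 without milk formula pool 3 and 2 without soy formula pool 1. The number was 0 without any 1 of the other 3 pools and 1 after quantile normalization. The 1 called without milk formula pool 1 was not SC5D, MSMO1, CYP51 or ACAT2, of which SC5D came nearest (adjusted p 0.0544 by limma). The list's median stayed between 0.66 and 0.91 as pools were left out.

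**Figure D2:**
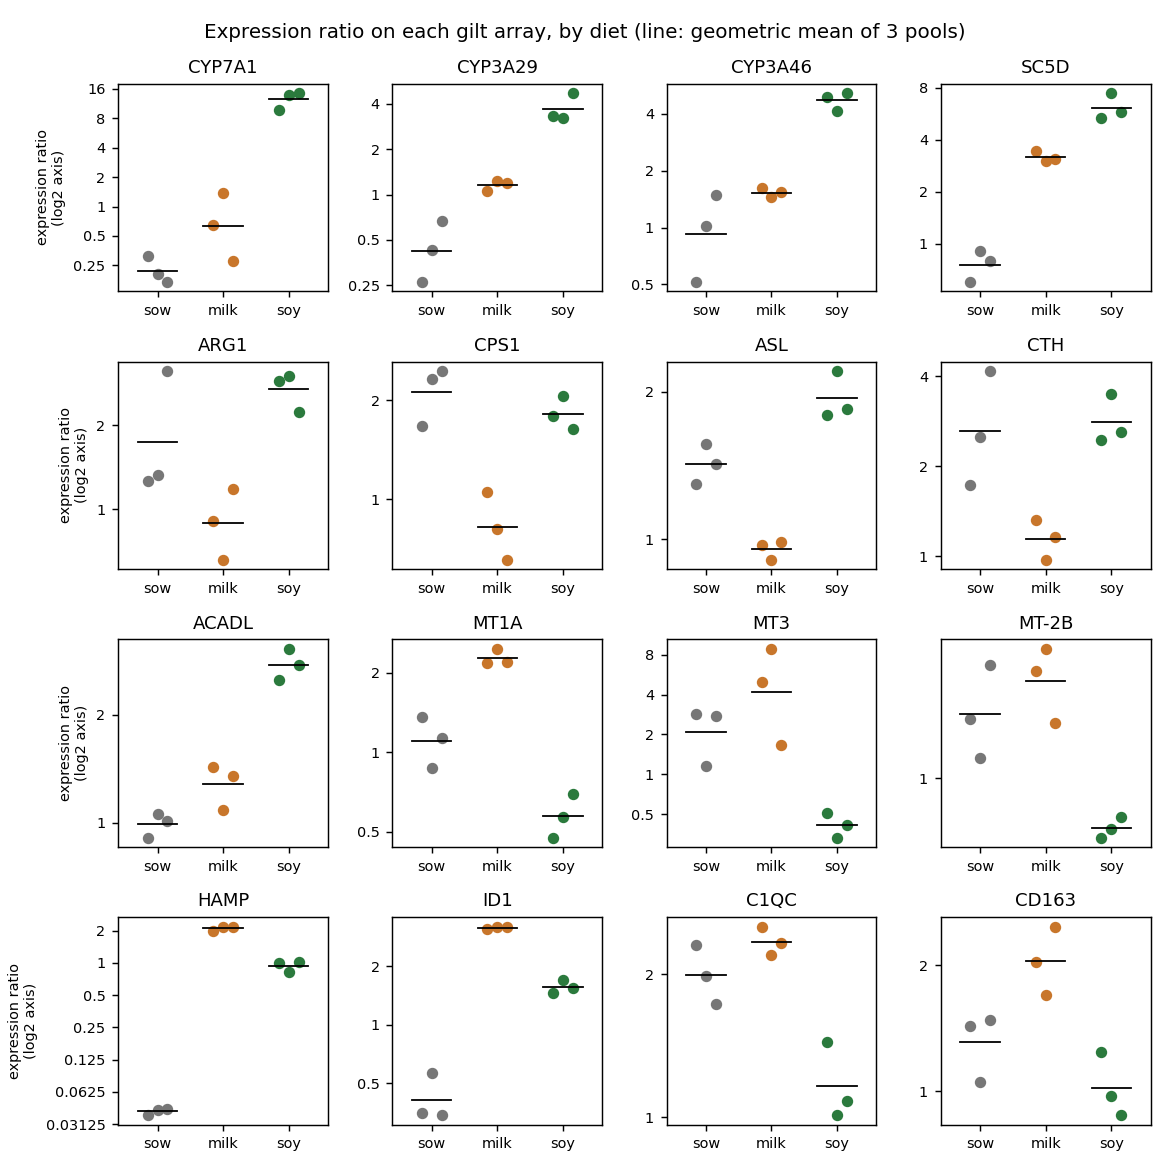
Expression ratio (log2 axis, a scale of its own in each panel) of 16 genes on the 3 sow-fed, 3 milk formula and 3 soy formula gilt arrays; points are pools and lines are geometric means. Soy and milk formula pools do not overlap for any of the 16. The sow-fed pools lie below both formulas for CYP3A29, SC5D, ACADL, HAMP and ID1, farthest for HAMP.

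Fatty acid and triglyceride synthesis held 3 called genes of 17, all higher on soy formula, with a list median of 0.38. They were the desaturases FADS1 (log2 1.05, SE 0.19, adjusted p 0.0444) and FADS2 (0.81, SE 0.15, adjusted p 0.0431), which make long polyunsaturated fatty acids, and PNPLA3, a lipid droplet enzyme (1.46, SE 0.28, adjusted p 0.049). FADS1 measured 3, 4.61 and 4.12 on soy formula and 2, 1.49 and 2.18 on milk formula. FADS2 has a further probe set that differed by 0.02. Fatty acid synthase FASN was 1.12 higher (adjusted p 0.0964) and ACSS2, which activates acetate, 1.11 higher (adjusted p 0.102), both with groups apart. Without milk formula pool 2, soy formula pool 2 or soy formula pool 3, 0 members were called, and without any 1 of the other pools 1 was.

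Fatty acid oxidation and ketogenesis held 4 called genes of 24, again all higher, with a list median of 0.32. The acyl-CoA dehydrogenase ACADL measured 2.49, 3.05 and 2.75 on soy formula and 1.43, 1.08 and 1.35 on milk formula and rose by 1.11 (SE 0.13, adjusted p 0.0207). Its medium-chain relative ACADM rose by 0.76 (adjusted p 0.0239), DECR1, needed for unsaturated chains, by 0.69 (adjusted p 0.0306), and ETFDH, which passes the electrons to the respiratory chain, by 0.65 (adjusted p 0.0457; 0.29 by its further probe set). CPT1A, the entry step into mitochondria, differed by -0.24 (adjusted p 0.507) and the regulator PPARA by 0. Called members numbered 3, 0 and 3 without milk formula pools 1, 2 and 3, and 2, 0 and 0 without soy formula pools 1, 2 and 3. Of 14 lipoprotein genes 0 were called (2 at an unadjusted p under 0.05), with a median of 0.03 (-0.02 to 0.08 as pools were left out), and APOB differed by 0.

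The urea cycle stood higher on soy formula. ARG1, arginase, which releases urea, measured 2.88, 3 and 2.24 on soy formula, 0.908, 0.658 and 1.18 on milk formula, and 1.26, 1.33 and 3.13 in sow-fed gilts, and rose by 1.59 (SE 0.21, adjusted p 0.0239). CPS1, which fixes ammonia in the first step, measured 1.79, 2.06 and 1.64 against 1.05, 0.812 and 0.654 and rose by 1.15 (SE 0.17, adjusted p 0.0303). ASL rose by 1.02 (SE 0.1, adjusted p 0.0143), from 0.973, 0.909 and 0.989 to 1.79, 2.21 and 1.85, and ASS1 by 0.93 (SE 0.15, adjusted p 0.0321). OTC, the second enzyme of the cycle, was 0.31 higher (adjusted p 0.138) and was not called. Sow-fed gilts had CPS1 ratios of 1.67, 2.33 and 2.46, in or above the soy formula range. Of the 7 list members, GLUL (0.14) and OAT (-0.35), both of which handle glutamate, were not called, and the list's median was 0.93. Called members numbered 2, 0 and 4 without milk formula pools 1, 2 and 3, and 1, 0 and 1 without soy formula pools 1, 2 and 3; the median did not go below 0.77.

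Amino acid breakdown held 5 called genes of 27, all higher on soy formula, and 24 of the 27 had a higher mean (median 0.35). CTH, which makes cysteine from cystathionine, measured 2.45, 3.48 and 2.61 on soy formula and 1.32, 0.975 and 1.16 on milk formula and rose by 1.30 (SE 0.16, adjusted p 0.0233). GOT1, aspartate aminotransferase, rose by 1.01 (adjusted p 0.0414), and MUT, the methylmalonyl-CoA mutase at the end of branched-chain and methionine breakdown, by 0.85 (adjusted p 0.035). BCKDHB, a subunit of the branched-chain ketoacid dehydrogenase, rose by 0.60 (adjusted p 0.0414), and ALDH4A1, of proline breakdown, by 0.53 (adjusted p 0.0368; 0.29 by its further probe set). TAT and GPT, both transaminases, differed by -0.14 and 0. Called members numbered 1, 0 and 2 without milk formula pools 1, 2 and 3, and 1, 0 and 1 without soy formula pools 1, 2 and 3. Of 12 genes of the amino acid response 1 was called, VLDLR, a lipoprotein receptor, which fell by 0.73 (adjusted p 0.0301; -0.17 by its further probe set), and ASNS, asparagine synthetase, differed by 0.48 (adjusted p 0.536) at 2.83, 3.18 and 2.66 on soy formula and 1.19, 2.43 and 3.05 on milk formula. Gluconeogenesis held 0 called genes of 10 (5 at an unadjusted p under 0.05). PCK1, its rate-setting enzyme, measured 0.735, 0.213 and 0.315 on soy formula and 3.74, 1.82 and 1.1 on milk formula, a log2 difference of -2.42 that missed the threshold (adjusted p 0.0704).

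Drug-metabolising enzymes held 5 called genes of 27, all higher on soy formula, with a list median of 0.32. CYP3A46, a cytochrome P450 of the family that oxidises steroids and many drugs, measured 4.92, 4.13 and 5.15 on soy formula, 1.61, 1.45 and 1.53 on milk formula and 0.516, 1.02 and 1.49 in sow-fed gilts. It rose 3.08-fold (log2 1.62, SE 0.11, adjusted p 0.00407). CYP3A29 measured 3.3, 3.23 and 4.72 against 1.06, 1.23 and 1.19 and rose 3.19-fold (log2 1.67, SE 0.15, adjusted p 0.0115). CYP2D25, a vitamin D hydroxylase in pigs, rose by 1.10 (SE 0.11, adjusted p 0.0143), though its further probe set differed by 0.03. CYP2C33 rose by 0.56 (adjusted p 0.0441), and POR, which hands electrons to all microsomal P450s, by 0.55 (adjusted p 0.0321). The relatives CYP3A22 and CYP3A39 were 0.65 and 0.77 higher without passing (adjusted p 0.579 and 0.102), and since porcine CYP3A sequences are close, probe sets of this family may read more than 1 gene. The receptor NR1I2 differed by -0.25 (adjusted p 0.373) and CYP2E1 by 0.01. Called members numbered 3, 1 and 5 without milk formula pools 1, 2 and 3, and 3, 2 and 3 without soy formula pools 1, 2 and 3. The 5 without milk formula pool 3 did not include CYP2C33 (adjusted p 0.0846 by limma). The list's median was 0.12 without soy formula pool 1 and 0.19 without milk formula pool 3.

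Of 25 genes of glutathione use and NRF2 response, 3 were called, all higher. GPX3, the secreted glutathione peroxidase, rose by 0.83 (adjusted p 0.0399), GSTA4, which conjugates lipid aldehydes, by 0.58 (adjusted p 0.0447; -0.04 by its further probe set), and CAT, catalase, by 0.55 (adjusted p 0.0321). CAT measured 1.88, 2.04 and 1.82 on soy formula and 1.36, 1.23 and 1.32 on milk formula. GCLC, the rate-limiting enzyme of glutathione synthesis, was 1.01 lower and NQO1, a classic NRF2 target, 0.91 higher, neither past the threshold (adjusted p 0.0922 and 0.0898). The list's median was 0.17, but 0.31 without milk formula pool 3 and 0.11 without milk formula pool 2. Called members numbered 3 without milk formula pool 3 and 0 without any 1 of the other 5 pools. Of GPX3, GSTA4 and CAT, only GPX3 was among the members called without milk formula pool 3 (limma adjusted p 0.0465, 0.0841 and 0.0561).

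All 3 measured metallothioneins, small proteins that bind zinc and copper, fell on soy formula. MT1A measured 0.475, 0.567 and 0.695 on soy formula, 2.18, 2.46 and 2.21 on milk formula, and 1.36, 0.872 and 1.13 in sow-fed gilts. It was 3.98-fold lower (log2 -1.99, SE 0.14, adjusted p 0.00407). MT3 measured 0.507, 0.332 and 0.412 on soy formula against 4.99, 8.88 and 1.65 on milk formula, the largest fall of any named gene (log2 -3.35, SE 0.52, adjusted p 0.0321). MT-2B measured 0.756, 0.787 and 0.834 against 1.66, 1.83 and 1.3 and fell 2-fold (SE 0.13 on the log2 scale, adjusted p 0.0239). Sow-fed gilts lay between both formulas or within the milk formula range for all 3 genes. In the Sscrofa11.1 annotation the 3 genes lie in 1 cluster with MT4 and MT1D, and the MT1A probe set is of the kind that can read near-identical copies, so the share of each gene is uncertain. Without milk formula pool 2 none of the 3 was called, with MT1A at an adjusted p of 0.0501. MT1A alone was called without milk formula pool 1, soy formula pool 1, soy formula pool 2 or soy formula pool 3, and all 3 without milk formula pool 3. Of 10 zinc and copper transporters and chaperones 0 were called, and 0 had an unadjusted p under 0.05, with a median of -0.02 (-0.05 to 0.04 as pools were left out), and SLC39A4 differed by -0.02 and SLC39A14 by -0.12.

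Hepcidin and the ID genes, both targets of BMP signalling in hepatocytes, were lower on soy formula. HAMP measured 0.993, 0.82 and 1.01 on soy formula and 1.98, 2.15 and 2.18 on milk formula, a 2.24-fold fall (log2 -1.16, SE 0.11, adjusted p 0.0115). ID1 measured 1.45, 1.69 and 1.54 against 3.1, 3.2 and 3.18 (log2 -1.02, SE 0.09, adjusted p 0.0115), and ID3 fell by 0.66 (SE 0.09, adjusted p 0.0246). In sow-fed gilts HAMP was at 0.0376, 0.0424 and 0.0436 and ID1 at 0.353, 0.561 and 0.341, below every formula pool. ID2 differed by -0.25 (adjusted p 0.279). BLVRA, biliverdin reductase of heme breakdown, rose by 0.64 (adjusted p 0.035). FTL, the ferritin light chain that stores iron, was 1.10 lower at 1.51, 0.822 and 0.926 against 2.56, 1.85 and 2.38 (adjusted p 0.0626; 0.10 by its further probe set), while FTH1, the heavy chain, differed by -0.08 and TFRC, the transferrin receptor, by 0.10 (adjusted p 0.855). In all, 1 of 21 iron and heme genes rose and 3 fell, with a median of -0.09 that ran from -0.05 without milk formula pool 1 to -0.14 without milk formula pool 3. Without milk formula pool 2 none was called, with ID1 at an adjusted p of 0.0516 and HAMP at 0.063; HAMP and ID1 stayed called without each of the other 5 pools. Acute phase genes, which often move with HAMP, held only HAMP itself among 22 as a call. Of the 22, 6 had an unadjusted limma p under 0.05 and 17 had a lower mean on soy formula. APCS was 0.69 higher with groups apart (adjusted p 0.0693).

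**Figure D3:**
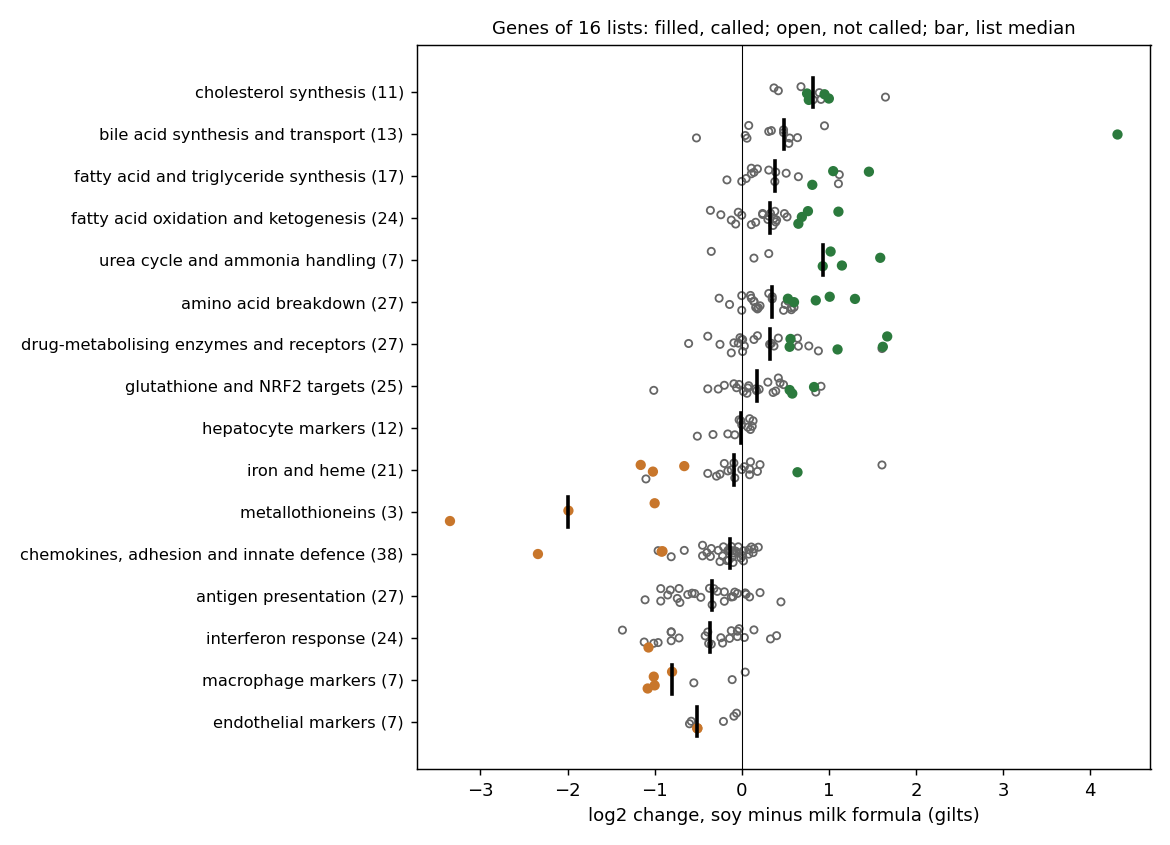
Log2 change (soy minus milk formula) of each measured gene in 16 lists, with the number measured in brackets; filled points are called, green higher and orange lower, open points are not called, and bars are list medians. The medians run from -1.99 for metallothioneins to 0.93 for the urea cycle, and hepatocyte markers lie around 0.

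Macrophage genes were lower on soy formula, with 4 of 7 measured markers called and a median of -0.80. C1QC, a chain of complement C1q made by liver macrophages, measured 1.44, 1.01 and 1.08 on soy formula and 2.52, 2.19 and 2.33 on milk formula (log2 -1.01, SE 0.14, adjusted p 0.0246). C1QA fell by 1.08 (adjusted p 0.035). CD163, the haemoglobin scavenger receptor, fell 2-fold (adjusted p 0.0375), from 2.04, 1.69 and 2.47 to 1.24, 0.977 and 0.876, and VSIG4, a complement receptor of Kupffer cells, by 0.80 (adjusted p 0.0321). The further probe set of CD163 differed by -0.08, and those of VSIG4 by 0.09 and -0.64, none of them called. MRC1 was 0.55 lower without passing (adjusted p 0.281), and MARCO and CD5L differed by -0.11 and 0.04. The 7 markers summed to 6.22 to 7.74 on soy formula, 10.1 to 12.1 on milk formula and 10.2 to 12.4 on sow milk, so the soy formula pools lay below both other groups. Such a sum can be compared only between arrays, since each marker enters with its own unknown divisor. In whole liver RNA, fewer cells of a type and less RNA per cell cannot be told apart. Called members numbered 4 without soy formula pool 1, 1 without milk formula pool 3 and 0 without any 1 of the other 4 pools, while the median stayed between -0.70 and -0.91.

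Endothelial markers held 2 called genes of 7, both lower, and all 7 had a lower mean (median -0.51). PECAM1, a junction protein, measured 0.906, 0.898 and 0.907 on soy formula and 1.28, 1.34 and 1.24 on milk formula (log2 -0.51, SE 0.08, adjusted p 0.0317), and its further probe set differed by -0.22 (adjusted p 0.347). CDH5, the endothelial cadherin, fell by 0.51 (SE 0.09, adjusted p 0.0414), and its further probe set by 0.82 (adjusted p 0.0311). LYVE1 of the liver sinusoids was 0.58 lower (adjusted p 0.0591). The 7 markers summed to 5.24 to 6.06 on soy formula and 7.15 to 8.28 on milk formula. Without milk formula pool 3, 1 member was called, and without any 1 of the other pools 0 were. Stellate cell markers held 0 calls of 7, T and NK cell markers 0 of 10, neutrophil markers 0 of 5 and cholangiocyte markers 0 of 5. At an unadjusted p under 0.05 these 4 lists held 2, 1, 1 and 0 genes. Of 5 erythroid markers, HBB, a globin chain, rose by 0.93 (adjusted p 0.0264). ALAS2 and AHSP, of red cell precursors, differed by -0.67 (SE 0.69, adjusted p 0.747) and -0.77 (SE 0.72, adjusted p 0.716), with overlapping groups.

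Few genes of the other immune lists passed. Chemokines, adhesion and innate defence held 3 called genes of 38, all lower: DEFB1, an epithelial antimicrobial peptide, at -2.34 (SE 0.37, adjusted p 0.0321), ICAM1, an adhesion molecule, at -0.92 (adjusted p 0.0321), and ITGB2, the leukocyte integrin chain that binds it, at -0.91 (adjusted p 0.0264). DEFB1 measured 0.591, 0.385 and 0.276 on soy formula and 2.24, 3.11 and 1.18 on milk formula, and its further probe set differed by 0.01. Of 24 interferon response genes, MX1 was the 1 called, at -1.08 (adjusted p 0.024), and the list's median was -0.36, between -0.25 and -0.49 as pools were left out. Antigen presentation held 0 calls of 27, with 12 at an unadjusted p under 0.05, 22 of the 27 lower and a median of -0.34, which was -0.23 without milk formula pool 1 and -0.53 without milk formula pool 3. SLA-DRA, a class II chain, measured 1.04, 0.657 and 0.493 against 1.93, 1.94 and 0.905 (adjusted p 0.172), so the groups overlapped. Complement and coagulation held 0 calls of 30 (13 at an unadjusted p under 0.05, median -0.17), and the median was -0.10 without milk formula pool 1. CD53, a leukocyte surface protein, and PLAC8, found in myeloid cells, were among the 15 largest falls, at -1.11 (adjusted p 0.0362) and -1.23 (adjusted p 0.0404). The further probe sets of CD53 differed by -0.86 (adjusted p 0.0321) and 0.05. The macrophage marker sum was lower on the same 3 soy formula pools, and its part in these values was not tested. Chemokine list calls numbered 3 without milk formula pool 3, 2 without soy formula pool 1 and 0 without any 1 of the other 4 pools.

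UCHL1, a ubiquitin hydrolase best known from neurons, had one of the smallest p-values. It measured 0.584, 0.704 and 0.706 on soy formula, 0.243, 0.245 and 0.231 on milk formula and 0.258, 0.216 and 0.288 in sow-fed gilts, and rose 2.76-fold (log2 1.47, SE 0.1, adjusted p 0.00407). DHRS7, a short-chain reductase, rose by 1.55 (adjusted p 0.0306), TSKU, a secreted protein made by liver, by 1.54 (adjusted p 0.0446), and TIMM8A, a mitochondrial import chaperone, by 1.22 (adjusted p 0.0413). For TSKU the further probe set rose too, by 1.79 (adjusted p 0.049). Among the falls, FOLR1, a folate receptor, changed by -1.07 (adjusted p 0.0264) with a further probe set at 0.01. ARRDC4, an arrestin-like gene induced by glucose, changed by -1.10 (adjusted p 0.0441), RNASET2, a lysosomal ribonuclease, by -1.12 (adjusted p 0.0336), ARPC1B, of the actin-branching complex of blood cells, by -1.02 (adjusted p 0.0314), and PEBP4 by -1.01 (adjusted p 0.0414; -0.90 by its further probe set). HSPA4, a heat shock cochaperone, was the 1 called gene of 24 chaperones (0.63, adjusted p 0.0321; 0.10 and 0.46 by its further probe sets), TIMP2, a metalloproteinase inhibitor, the 1 of 34 matrix genes (-0.87, adjusted p 0.0414; -0.37 by its further probe set), and ARNTL, the core clock activator, the 1 of 6 clock genes (-0.74, adjusted p 0.0316).

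Hormone and growth lists held no calls. Of 22 genes of growth hormone, IGF and insulin action, 0 passed (1 at an unadjusted p under 0.05). IGF1, the growth factor secreted by liver, measured 1.51, 0.869 and 1 on soy formula and 0.997, 0.738 and 0.711 on milk formula (log2 0.44, SE 0.21, adjusted p 0.383), and its further probe sets differed by 0.34 and -0.23. IGFBP1 spread widely within both diets, at 2.29, 0.358 and 3.07 against 3.42, 2.48 and 0.545 (log2 -0.29, SE 0.89; 0.21 by its further probe set), and IGFBP2 was 0.62 lower (adjusted p 0.13). ESR1, the oestrogen receptor, measured 0.268, 0.215 and 0.25 on soy formula and 0.235, 0.221 and 0.231 on milk formula (log2 0.09, SE 0.1, adjusted p 0.781). Of 31 nuclear receptor and steroid handling genes 0 were called (4 at an unadjusted p under 0.05), with a median of 0. Cell cycle genes held 0 calls of 25 (4 unadjusted) and ER stress genes 0 of 15 (7 unadjusted).

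The same dietary change in boars, from 3 soy formula and 3 milk formula pools fitted alone, gave 0 calls of 23935 (0%) by limma with Benjamini-Hochberg adjustment, with 1428 at an unadjusted p under 0.05 against 3652 in gilts. The median standard error of the log2 change was 0.256 in boars and 0.105 in gilts. Of the 338 probe sets called in gilts, 243 (71.9%) had the same sign in boars, beside 52.6% of all probe sets. Their median change was 0.77 in gilts and 0.24 in boars, taken in the gilt direction. The difference of the change between the sexes, tested as an interaction over the 12 formula arrays, gave 0 calls of 23935 (0%), with 1740 at an unadjusted p under 0.05 and a lowest adjusted p of 0.316. No gene is thus shown to respond differently in gilts and boars, and the wider spread of the boar arrays limits that test. Sex and any array batch that goes with sex cannot be told apart. Many of the named genes had lower ratios on the boar arrays on every diet. ACADM lay at 1.385 to 3.049 on the gilt arrays and 0.384 to 0.615 on the boar arrays. For CAT the ranges were 1.227 to 2.035 and 0.541 to 0.773, and for MUT 1.155 to 2.595 and 0.545 to 0.845. DECR1, BCKDHB and ALDH4A1 were apart in the same way, whereas the ranges of ESR1 and HAMP overlapped. Whether the boar arrays as a whole are offset was not tested. Diets are therefore compared within each sex.

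Set beside the gilt values gene by gene, MT1A differed by -1.61 in boars, MT3 by -2.99, MT-2B by -1.37 and ARG1 by 1.48, none of them called there. Boar MT1A measured 0.636, 0.472 and 0.503 on soy formula and 1.96, 1.61 and 1.35 on milk formula, without overlap, and boar ARG1 1.49, 1.05 and 0.946 against 0.464, 0.428 and 0.344. The median of the urea cycle list was 0.70 in boars and that of the macrophage markers -0.65. CYP7A1 was 1.80 higher in boars, at 1.36, 0.502 and 4.39 on soy formula and 0.256, 0.667 and 0.417 on milk formula, so 1 soy formula pool lay within the milk formula range. CYP3A46 and CYP3A29 were 0.35 and 0.56 higher in boars, and the cholesterol synthesis list had a boar median of 0.24, with SC5D at -0.10. HAMP and ID1 were 0.54 and 0.38 higher on soy formula in boars, against falls in gilts. The gilt minus boar difference was 2.51 for CYP7A1 and -1.70 for HAMP, with adjusted p-values from limma's interaction test that missed the threshold.

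**Figure D4:**
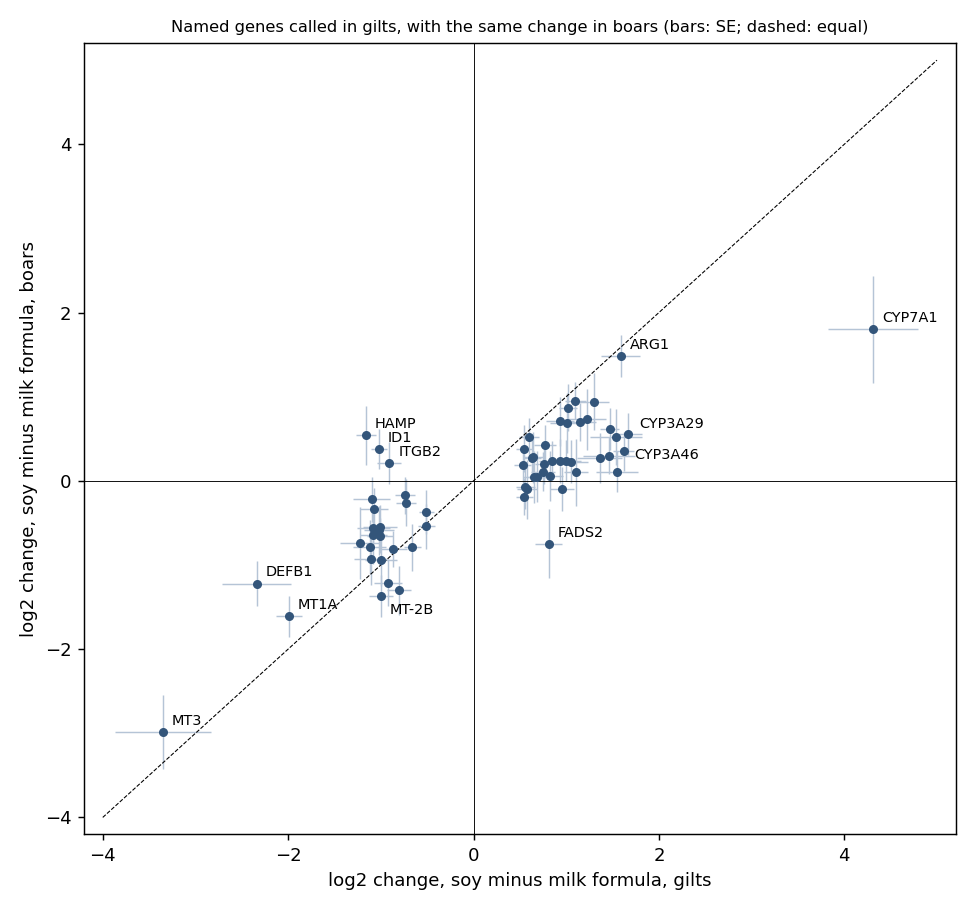
Log2 change (soy minus milk formula) in gilts across and in boars upwards for the 63 called genes named in the text; bars are standard errors and the dashed line marks equal change. Metallothioneins and ARG1 lie near the dashed line, CYP7A1 well below it, and HAMP, ID1 and ITGB2 above 0 in boars but below 0 in gilts.

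**Figure D5:**
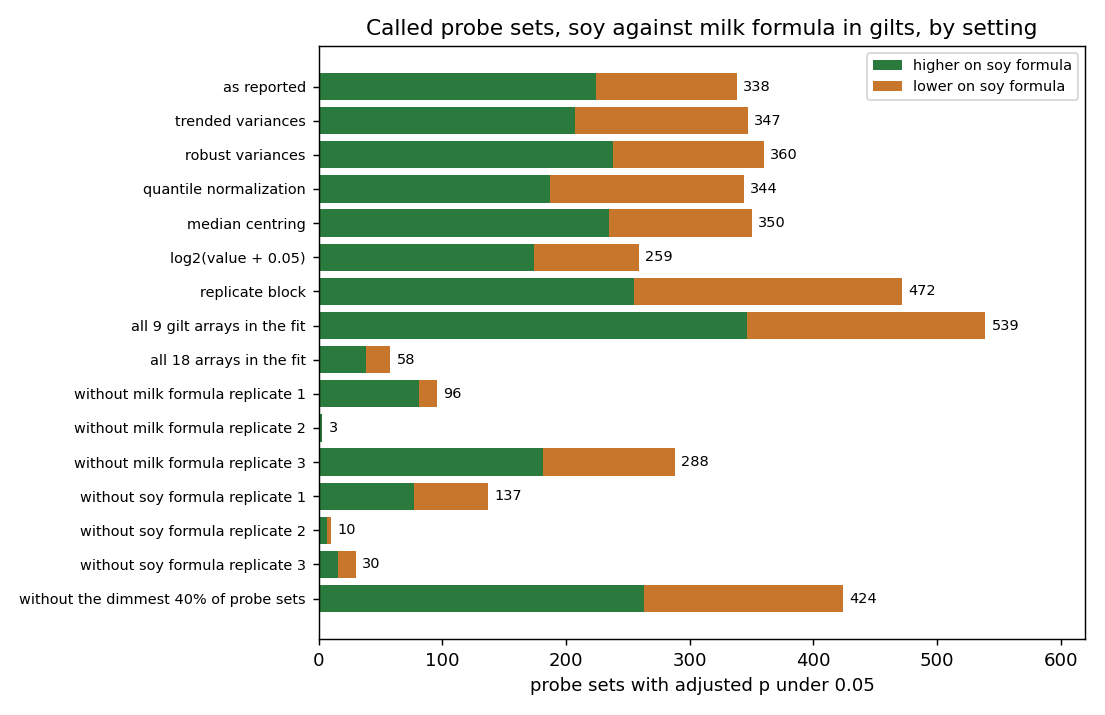
Number of probe sets called higher (green) and lower (orange) on soy formula in gilts under the fit reported and under 15 alternatives. The count runs from 3 without milk formula pool 2 to 539 with all 9 gilt arrays in the fit, against 338 as reported.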

How the data were processed

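Liver RNA pools were measured on Affymetrix porcine arrays. The authors deposited a linear expression ratio per probe set and array, made with GCOS and RMA, per the submitters' processing notes (versions and annotation build not given in the sources used here). Medians over the 18 arrays equalled 1 within 0.002 for 5271 of the 24123 probe sets (21.9%) and were never higher. Log2 was taken of the ratios, 188 control probe sets were left out, and limma 3.58.1 in R 4.3.3 (lmFit, eBayes) was fitted on 6 arrays without a floor or filter, with Benjamini-Hochberg adjustment over 23935 probe sets, after being tested on simulated data. By the array annotation 10069 probe sets name 1 gene, 198 several and 13668 none. A gene was read from its probe set with the highest mean. The text names the 15 largest rises and the 15 largest falls among called genes with non-overlapping groups, up to 6 called members of each list, and a fixed set of genes. The members and lists were chosen with earlier results of these data known; of 912 listed symbols, 596 were measured, and some genes of the fixed set are not analysed here. Alternatives varied the variance model, normalization, pseudocount, filter, samples, pool numbers as a block, and the probe sets per gene. Over all tested probe sets, the residuals of pools with the same number correlated at 0.177, 0.0137 and 0.0472, and the numbers were not taken as pairs. Such correlations cannot show whether smaller sets of genes moved together by pool number, which was not tested. The number of arrays limits the precision.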

Additional observations from a re-analysis of the deposited data

Results flagged for a closer look

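For 3 of the 63 called genes named in the text, every soy formula pool moved one way in gilts and the opposite way in boars. Each pool was set against its sex's milk formula mean. The gilt minus boar difference was -1.7 for HAMP, -1.4 for ID1 and 0.75 for CAT on the log2 scale, and limma's interaction test did not call any of them. Boar HAMP measured 1.26, 1.73 and 1.64 on soy formula and 1.82, 0.643 and 1.01 on milk formula, so the boar groups overlapped, and boar ID1 measured 0.958, 1.04 and 1.27 against 0.724, 0.737 and 1.07. Boar CAT measured 0.594, 0.541 and 0.646 against 0.622, 0.773 and 0.644. Opposite signs in the sexes were not limited to these genes, as 243 of the 338 called probe sets had the same sign. CRK changed by 0.92 in gilts and -0.5 in boars, and MATR3 by 0.45 and -0.81. Both had an adjusted p of 0.348 by limma's interaction test.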

How the results depend on the processing

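All 338 called probe sets kept their direction in every alternative that tested them. Counts within 1.5 times came from trended (347) and robust (360) variances, quantile normalization (344), median centring (350), a pseudocount of 0.05 (259), leaving out the dimmest 40% (424) and a 1.5-fold minimum (284). With pool number as a replicate block 472 were called, 255 higher and 217 lower; of the 472, 274 were among the 338, and the numbers are not shown to pair pools. With all 9 gilt arrays in the fit 539 were called (346 higher, 193 lower, 250 named genes), and with all 18 arrays 58 (38 higher, 20 lower, 25 named genes), where the spread includes the boar arrays. Leaving out 1 pool gave 3 to 288 calls, 3 to 181 higher and 0 to 107 lower, and 3 to 143 named genes; 1 diet then rests on 2 pools. As pools were left out, list medians ranged from 0.77 to 1 (urea cycle), 0.12 to 0.35 (drug-metabolising enzymes; 0.23 after quantile normalization) and 0.11 to 0.31 (glutathione and NRF2); the cause was not tested. Only uncalled genes changed sign: TFRC, 0 without soy formula pool 3, and IGFBP1, 0.23 without milk formula pool 1, 0.67 without soy formula pool 2 and down to -1.1 without milk formula pool 3. The interaction with sex gave 0 calls in all 15 alternatives, with lowest adjusted p-values from 0.0703 to 0.846. Of the 63 called genes, 15 passed in every alternative that kept all 6 arrays.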

Other observations

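Called genes outside the rule for naming, picked here after their values were seen, include the following; no theme was tested over them. On soy formula NDUFB3 and NDUFC1, subunits of respiratory complex I, rose by 1.01 and 0.64 on the log2 scale (adjusted p 0.0317 and 0.0239 by limma). CS, citrate synthase, rose by 0.71, ATP5G3, of the ATP synthase, by 0.47, GFM1, a mitochondrial elongation factor, by 0.88, LIAS, which makes lipoate, by 0.68, and TFAM, which packs mitochondrial DNA, by 0.45. PHYH, of peroxisomal oxidation, rose by 0.70, ACADSB, of isoleucine breakdown, by 0.63, ALDH7A1, of lysine breakdown, by 0.94, and MIOX, which degrades inositol, by 0.97. Lower on soy formula were TYROBP, a signalling adaptor of myeloid cells, and AIF1, a calcium-binding protein of macrophages, at -0.82 and -0.86, CTSK, a lysosomal protease, at -0.51, and TXNIP, a relative of ARRDC4, at -0.95.

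Of the called genes, 63 have 94 further probe sets, of which 72 changed in the same direction and 9 were called as well. A further 140 called probe sets name no gene in the array annotation.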
